A study of Mus musculus with 9 samples.

Results

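The genes described here are 55 genes of the transport route between the endoplasmic reticulum (ER) and the Golgi apparatus, which were found by gene symbol, 1 table entry each, among the 38674 genes of a testis expression table. They were grouped by role into the COPI coat (9 genes), the ARF GTPases and their regulators (8 genes), the COPII coat with its SAR1 GTPases (10 genes), golgins, GRASPs and tethers (11 genes), p24 cargo proteins (7 genes) and ER-Golgi SNAREs (10 genes). RNA came from the testes of C57BL/6 male mice, taken after removal of the tunica albuginea, of 3 genotypes that differ at Pfn3, the gene of the testis-specific actin regulator profilin 3. The Pfn3+/+ animals (WT) carry no deletion, the Pfn3+/– animals (Het) carry 1 deleted copy and the Pfn3–/– animals (KO) carry 2, with 3 animals per genotype and 9 in all, and no genotype received a treatment. The deletions were made with CRISPR/Cas9 in fertilized eggs, and which of the deletion lines gave the RNA is not given in the sources used here. The study's methods state for all its experiments that the males were adult, at 2 to 6 months of age. The labels number the samples of a genotype without stating that each came from a separate animal, so p-values measure the spread between these samples, which are called animals below.

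Proteins made in the ER leave it in vesicles coated with COPII, a coat that assembles when the GTPase SAR1 recruits the SEC23–SEC24 layer, which binds cargo, and then the SEC13–SEC31 cage. Vesicles coated with COPI return escaped ER proteins and move material within the Golgi, and their coat, coatomer, is recruited as a whole by ARF GTPases once GBF1 has loaded these with GTP. Golgins and other tethers catch the incoming vesicles, SNARE proteins fuse them, and the p24 (Tmed) proteins act as cargo receptors in both coats. In round spermatids the Golgi is the source of the proacrosomal vesicles that fuse on the nucleus to form the acrosome, so this route supplies material for that organelle.

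Each value is a normalized count, which is the number of reads counted on a gene divided by 1 size factor per animal. The libraries were of a 3′ type, in which a read marks the end of a transcript, so counts were not divided by gene length and the values of a gene are compared between animals. The total of gene reads per animal was 3375546 to 4287335, and 3 reads, taken as the limit of detection, correspond to 2.58 to 3.71 normalized counts. Normalized counts of Pfn3 itself were 592, 383 and 373 in WT, 136, 339 and 326 in Het and 74.7, 215 and 279 in KO, but the guides cut inside its coding sequence and the reads come from the 3′ end of the transcript, so these reads do not check the deletion. Over the 14865 genes that passed the filter on all 9 animals (3 or more animals with a value of 10 or higher), WT 1 correlated with the other libraries at r = 0.750 to 0.783 and Het 1 at 0.750 to 0.827 across genes, while WT 2, WT 3 and Het 2 reached 0.922 to 0.927 among themselves. WT 1 held the lowest of the 9 values for 17 of the 55 transport genes (30.9%) and for 28.6% of those 14865 genes. Spermatid markers of the testis were abundant in every library, with a summed level over Tnp1, Tnp2, Prm1 and Prm2 of 233289 to 249362 normalized counts in WT, 179063 to 214894 in Het and 123388 to 199672 in KO. The round spermatid markers Acrv1, Spaca1, Tssk1, Catsper3 and Catsper4 summed to 3681 to 4788 in WT, 3022 to 3994 in Het and 1979 to 3116 in KO. Not every marker followed this sum. Spaca1 had 331, 538 and 707 in WT and 665, 384 and 643 in KO, with a higher mean in KO. Acrv1 had a lower mean in KO but overlapped between KO and WT. Marker sums of Leydig cells, Sertoli cells, spermatogonia, spermatocytes, macrophages and erythrocytes overlapped between KO and WT. Some single markers of these lists did not overlap. Sycp3 (455 to 674 in WT, 845 to 976 in KO) and Sycp1 (984 to 1226 in WT, 1579 to 2025 in KO) were higher in all KO animals. Gfra1 and Wt1 were also higher without overlap. Pgk2 (2828 to 4294 in WT, 1691 to 2772 in KO), Stra8 and Hba-a1 were lower in all KO animals. The part of these markers in the transport gene values was not tested. The epididymis markers Lcn5 and Adam7 were at 0 in every library. Crisp1, also of the epididymis, had 7.72 in WT 2, 4.83 in WT 3 and 1.72 in KO 1, and was at 0 elsewhere. Defb20, the last of these markers, had 3.86 in WT 3 and 5.36 in KO 3, and was at 0 elsewhere. The 4 macrophage markers summed to 132 to 280 normalized counts.

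**Figure D1:**
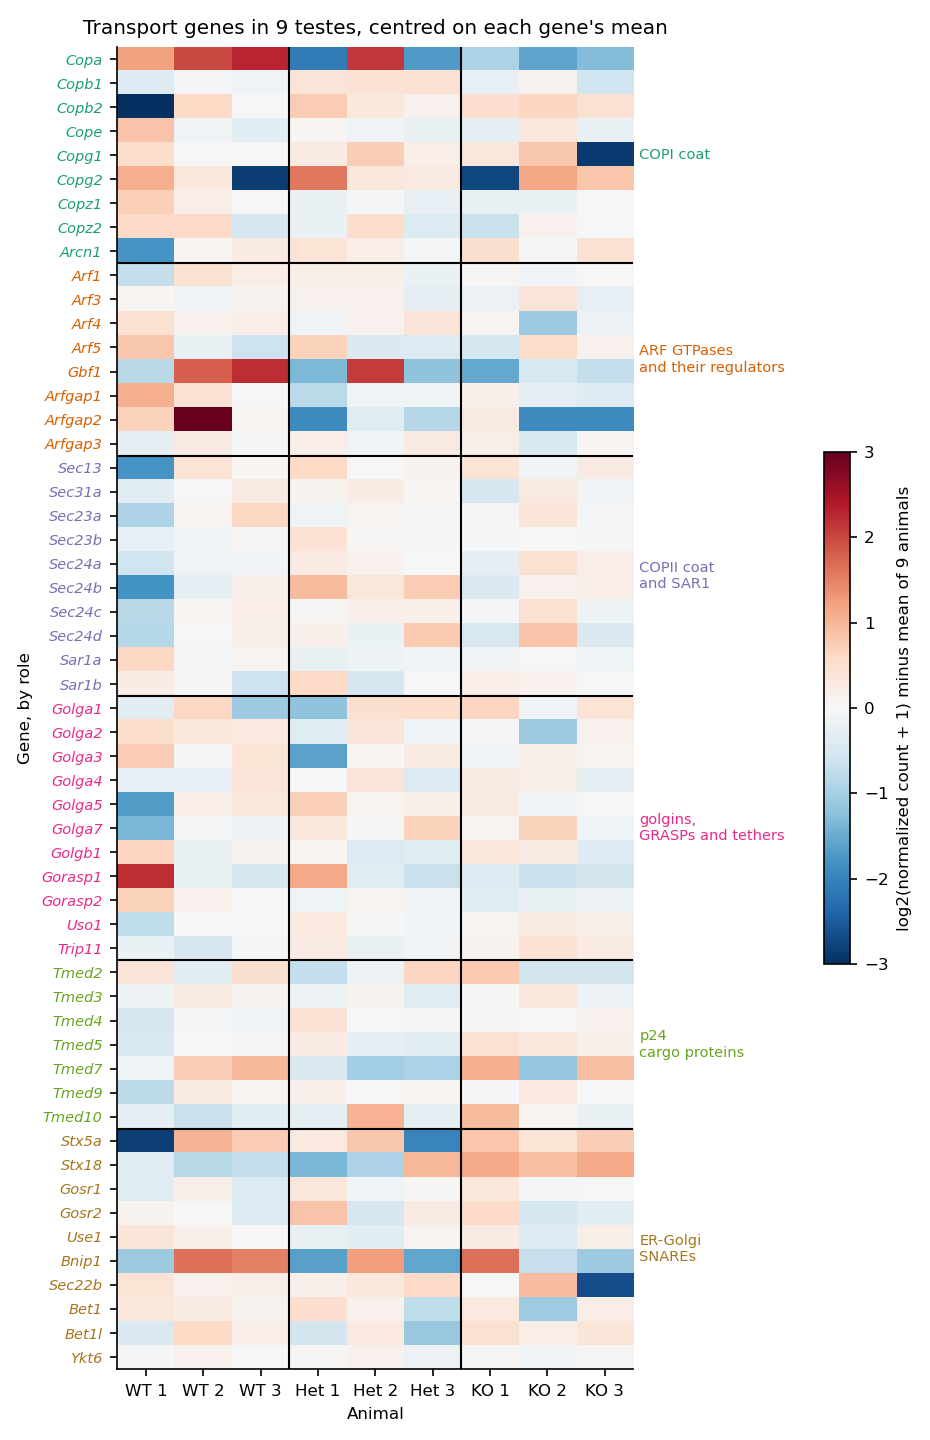
Heat map of the 55 transport genes (rows, ordered by role) in the 9 animals (columns), with color giving log2(normalized count + 1) minus the mean of the gene over the 9 animals. Copa is high in the 3 WT animals and Het 2 and low in the other 5, Stx18 is high in the 3 KO animals and Het 3, and single dark cells mark genes with 1 or a few low animals, such as Copb2 in WT 1, Copg2 in WT 3 and KO 1, and Copg1 and Sec22b in KO 3.

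The comparison of KO with WT asks which transport genes differ in level when both copies of Pfn3 are deleted. The clearest differences were in Copa, which encodes the alpha subunit of the COPI coat and was lower in KO, and in Stx18, which encodes an ER syntaxin that receives retrograde COPI vesicles and was higher in KO. Neither passed the cutoffs (limma adjusted p under 0.05 and an absolute log2 fold change above 1.5), so that 0 of the 52 transport genes tested were called, where 5 of 14223 genes (0.0352%) were called over the whole table. DESeq2 on the recovered reads called both, 2 of the 52 transport genes beside 0.703% of all genes. Both genes were singled out with earlier results of these data known, so these 2 calls are no evidence of an excess in the group. The edgeR quasi-likelihood test on the same reads called 0 of the 52 transport genes and 5 of 14223 genes over the whole table. In bulk tissue fewer cells of a type and less RNA per cell cannot be told apart. Both spermatid marker sums given above were lower in all KO than in all WT animals, and their part in the differences below was not tested.

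Copa (ENSMUSG00000026553, plus strand of chromosome 1 from 172082529 to 172122330 in GRCm38) had 214, 365 and 448 in WT, 20.8, 401 and 27.5 in Het and 47.2, 30.0 and 36.6 in KO. All 3 KO animals lay below all 3 WT animals, and the Het animals were split, with Het 2 within the WT range and Het 1 and Het 3 below the lowest KO animal. Prm2, a protamine of elongating spermatids, had its widest gap between the same animals, with 38569 to 54683 in WT and Het 2 and 16738 to 26112 in the other 5. Tnp2 set the same animals apart by a smaller gap, with 23484 or more in WT and Het 2 and 21285 or less elsewhere. Tnp1 and Prm1 did not. Tssk1 and Catsper3 of round spermatids, Stra8 of spermatogonia and Hba-a1 of erythrocytes also set these animals apart. Tssk1 had 1491 or more in WT and Het 2 and 1052 or less elsewhere, and Stra8 had 60.8 or more against 51.8 or less. Sycp3 of spermatocytes divided them the other way, with 674 or less in WT and Het 2 and 759 or more elsewhere. Prm2 and these other markers were picked out after their values were seen, and their part in the Copa values was not tested. The mean was 342 ± 119 in WT and 38.0 ± 8.70 in KO (SD, n = 3 each), a log2 fold change of −3.10 on the log2(value + 1) scale with a standard error of 0.34 and a limma adjusted p of 0.102. DESeq2 gave an adjusted p of 9.59e-11, and without WT replicate 1 limma gave 0.0140. Over the alternatives that kept all animals and used no block the adjusted p ran from this DESeq2 value to 0.533 for limma with all 9 animals in 1 fit.

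Stx18 (ENSMUSG00000029125, plus strand of chromosome 5 from 38038742 to 38137765) had 53.2, 37.6 and 40.6 in WT, 25.5, 35.4 and 137 in Het and 150.3, 128 and 149 in KO. Here the KO animals lay above the WT animals with a narrow spread in both genotypes, and Het 3 lay within the KO range while Het 1 and Het 2 lay below the lowest WT animal. Means were 43.8 ± 8.30 in WT and 142 ± 12.8 in KO (SD, n = 3 each), a log2 fold change of 1.69 with a standard error of 0.23 and a limma adjusted p of 0.176. The DESeq2 adjusted p was 2.12e-05, and limma without WT replicate 1 gave 0.0369, while the highest value with all animals kept and no block was again 0.533. Stx18 and Copa were the only transport genes under an unadjusted limma p of 0.05 in this comparison, 1 gene higher beside 3.04% of all genes and 1 lower beside 5.03%. With limma on values scaled by total gene reads, 4 were higher (Stx18, Tmed10, Tmed5 and Trip11) beside 6.78% of all genes and 1 was lower (Copa) beside 2.49%.

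The third lowest p-value belonged to Gbf1 (plus strand of chromosome 19 from 46152509 to 46286510), the exchange factor that loads ARF with GTP and so starts COPI recruitment. It had 65.6, 407 and 547 in WT, 45.4, 503 and 49.7 in Het and 39.5, 84.2 and 70.6 in KO. High values were confined to WT 2, WT 3 and Het 2, and WT 1 lay within the KO range, so the genotypes overlapped. Its log2 fold change of −1.97 had a standard error of 0.82 and a limma adjusted p of 0.610. Without WT replicate 1 the log2 fold change became −2.91 with a limma adjusted p of 0.0861, and with all animals kept and no block the adjusted p ran from 0.117 with DESeq2 to 0.691 with no filter.

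The promoters of these 3 genes are shown because they had the 3 lowest p-values of the transport genes in this comparison. The windows were taken from RefSeq (GRCm38.p6) and run from 250 bases before to 50 bases after the annotated start, which gives chr1:172082279-172082578 for Copa, chr5:38038980-38039279 for Stx18 and chr19:46152308-46152607 for Gbf1, each on the plus strand and written 5′ to 3′. Capitals mark matches on either strand to the GC box GGGCGG, the CCAAT box CCAAT, the CRE core TGACG and CCACG, the end of the ER stress element, and the last 2 overlap in the Gbf1 window.
Copa: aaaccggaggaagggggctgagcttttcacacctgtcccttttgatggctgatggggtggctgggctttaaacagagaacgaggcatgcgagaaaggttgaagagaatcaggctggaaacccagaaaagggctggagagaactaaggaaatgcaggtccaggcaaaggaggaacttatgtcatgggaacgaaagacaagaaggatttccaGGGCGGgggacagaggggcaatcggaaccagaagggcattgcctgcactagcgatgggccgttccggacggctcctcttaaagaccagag
Stx18: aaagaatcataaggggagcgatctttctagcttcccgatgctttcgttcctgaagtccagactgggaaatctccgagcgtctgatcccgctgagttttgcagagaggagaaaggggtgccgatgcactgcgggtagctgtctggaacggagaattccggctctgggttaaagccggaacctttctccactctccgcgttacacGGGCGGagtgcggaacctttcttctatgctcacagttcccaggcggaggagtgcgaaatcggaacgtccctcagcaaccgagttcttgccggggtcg
Gbf1: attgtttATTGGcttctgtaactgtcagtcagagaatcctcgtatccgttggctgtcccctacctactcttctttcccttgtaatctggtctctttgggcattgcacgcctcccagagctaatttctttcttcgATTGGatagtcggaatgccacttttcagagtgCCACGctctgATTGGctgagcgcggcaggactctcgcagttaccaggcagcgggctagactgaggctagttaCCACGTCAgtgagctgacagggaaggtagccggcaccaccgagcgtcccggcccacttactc
The RefSeq start of Stx18 lies downstream of the GENCODE start at 38038742, so its window falls inside the GENCODE gene model. The Copa and Stx18 windows each hold 1 GC box and none of the other motifs. The Gbf1 window holds no GC box, 3 CCAAT boxes, 1 CRE core and 2 copies of CCACG. A match describes letters only and is no evidence that a factor binds there.

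**Figure D2:**
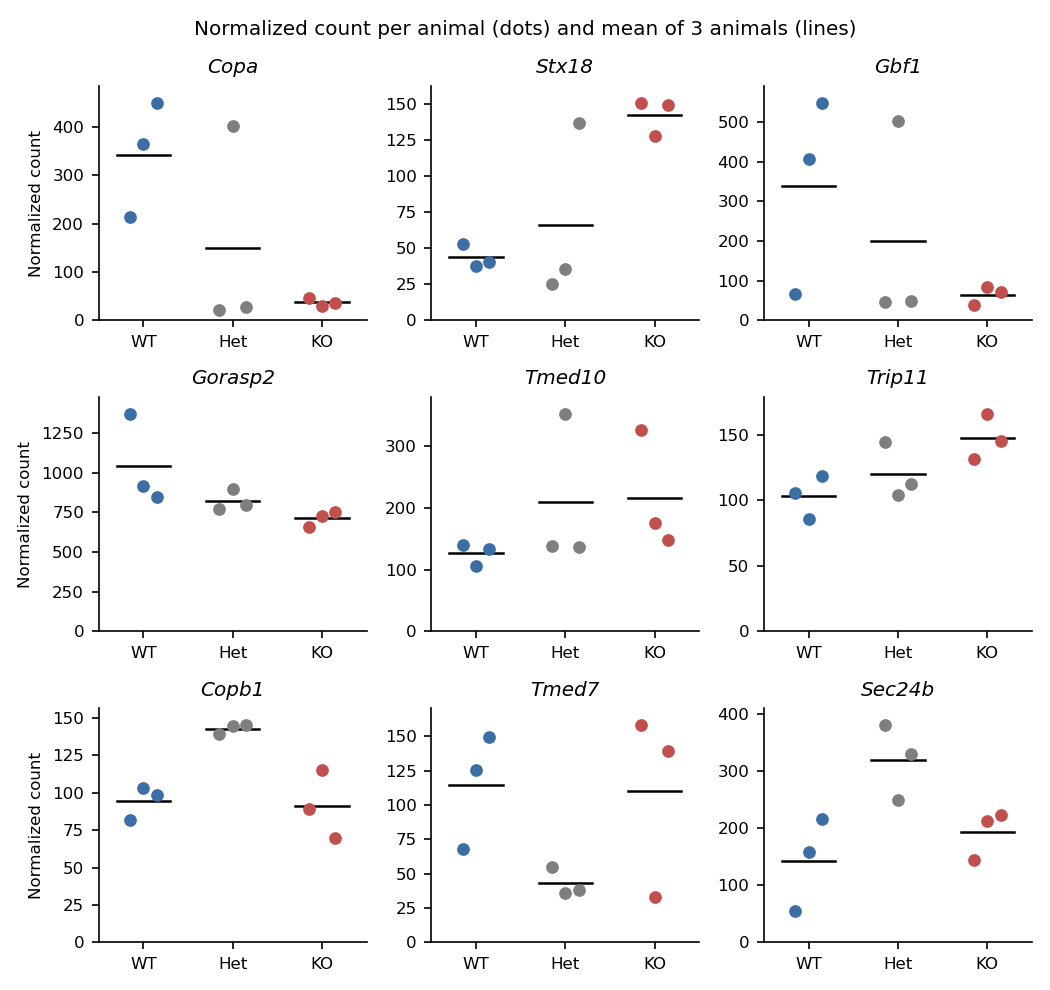
Normalized counts of 9 transport genes in each animal (dots, 3 per genotype) with the mean of the genotype (black lines), each panel with its own axis from 0. Copa and Gbf1 separate Het 2 from the other Het animals, Stx18 separates Het 3, and Copb1 is higher in the 3 Het animals than in the other 6.

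In the COPI coat no subunit but Copa was under an unadjusted p of 0.05. Of the 8 subunit genes tested, 3 had a higher and 5 a lower mean in KO than in WT on the log2 scale, with a median log2 fold change of −0.13 beside 0.02 over all genes tested. Copb1, the beta subunit, had 81.7, 103 and 98.5 in WT and 89.3, 115 and 69.7 in KO, a log2 fold change of −0.07 ± 0.26 (standard error). Copz1, a zeta subunit, had 399, 277 and 238 in WT and 206, 209.9 and 243 in KO and overlapped only through the lowest WT and the highest KO animal (log2 fold change −0.44 ± 0.25, limma adjusted p = 0.630, and −0.23 without WT 1). Cope, the epsilon subunit, had values of 116 to 262 in WT and 118 to 184 in KO. The other 4 tested subunits each had 1 or 2 animals far below the rest. Copb2, the beta prime subunit, was at 18.6 in WT 1 and between 206 and 347 in the other 8 animals, and its log2 fold change of 1.47 became 0.24 without WT 1 and 2.23 without WT 2. Arcn1, the delta subunit, was at 31.0 in WT 1 and between 103 and 150.3 elsewhere. The paralogous gamma subunits were low in different animals, Copg1 in KO 3 (11.6, and 89.7 to 159.6 in the other 8) and Copg2 in WT 3 and KO 1 (20.3 and 22.3, and 185 to 460.1 in the other 7). Copz2, the other zeta subunit, stayed between 5.15 and 13.6 in every animal and was not tested in this comparison.

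Among the ARF GTPases and their regulators, 6 of 7 tested genes had a lower mean in KO and 1 a higher one, with a median log2 fold change of −0.04, and none was under an unadjusted p of 0.05. The summed level of the 8 genes of this group was 2606 to 3190 normalized counts in WT, 2446 to 2794 in Het and 1892 to 2297 in KO. Arfgap2, with 218 in WT 2, is part of this sum. The normalized total over all genes was likewise lower in KO, at 3.28e+06 to 3.68e+06, than in WT, at 3.95e+06 to 4.18e+06. The group sum was not scaled by that total. Arf4, a class II ARF of the Golgi, had 1056, 847 and 884 in WT, 726, 843 and 1020.2 in Het and 816, 367 and 685 in KO. Its KO and WT animals did not overlap, KO 2 was the lowest of the 9, and the log2 fold change was −0.65 ± 0.32 (± SE, limma adjusted p = 0.615) and −0.31 without KO 2. Arf1, the GTPase best known for coatomer recruitment, had 314, 715 and 601 in WT and 534, 482 and 513 in KO, and the KO animals lay inside the WT range. Arfgap1, which ends the ARF cycle by stimulating GTP hydrolysis, had 251, 164 and 121 in WT and 135, 97.7 and 92.1 in KO (log2 fold change −0.67 ± 0.33, limma adjusted p = 0.615, and −0.40 without WT 1). Arf3, Arf5 and Arfgap3 had log2 fold changes of −0.03, 0.06 and −0.04.

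COPII genes were near the other side of 0, with 7 of 9 tested genes higher in KO and 2 lower and a median log2 fold change of 0.23, again with none under an unadjusted p of 0.05. Without WT 1, 4 of the 9 were higher and 5 lower, with a median of −0.05. WT 1 had the lowest of the 9 values for Sec13, Sec23a, Sec23b, Sec24a, Sec24b, Sec24c and Sec24d. Sec13, a subunit of the outer cage that also serves in the nuclear pore, had 86.7, 396 and 311 in WT and 281 to 395 in KO. The cargo-binding paralogs Sec24a and Sec24c had log2 fold changes of 0.39 ± 0.29 and 0.28 ± 0.34 (standard errors), and Sec24d lay at 3.71 to 14.5 normalized counts and was not tested. Sec23a and Sec23b, the inner-layer partners of the Sec24 proteins, and Sec31a of the outer cage had log2 fold changes of 0.18, 0.10 and −0.08. Sar1a, the GTPase that starts the coat, had 775, 497 and 539 in WT and 472, 515 and 459 in KO (log2 fold change −0.30 ± 0.22, and −0.10 without WT 1). Sar1b and Sec24a lie head to head on chromosome 11, 52 bases apart in the GENCODE gene models, and Sar1b had 178, 154 and 97.5 in WT and 173, 165 and 153 in KO.

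In the golgins, GRASPs and tethers, 6 of 11 genes were higher and 5 lower in KO (median log2 fold change 0.08). Trip11, a golgin of the cis-Golgi rim that is also found at the Golgi of spermatids, had 105, 85.9 and 119 in WT and 131, 165 and 145 in KO, with no overlap and a log2 fold change of 0.51 ± 0.22 (± SE, limma adjusted p = 0.610). Uso1, the vesicle tether p115, likewise had 38.4, 66.6 and 66.6 in WT and 69.6, 77.4 and 75.1 in KO. In the opposite direction, Gorasp2, a stacking protein of the medial Golgi, had 1367, 915 and 845 in WT, 774, 896 and 796 in Het and 657, 729 and 753 in KO. Its KO animals lay below all WT and all Het animals, and the log2 fold change against WT was −0.52 ± 0.23 (limma adjusted p = 0.610) and −0.30 without WT 1. Golga2, the cis-Golgi golgin that binds Uso1, had 73.0, 62.7 and 61.8 in WT and 48.1, 23.2 and 55.4 in KO (log2 fold change −0.71 ± 0.37, and −0.34 without KO 2). Golga4, a golgin of the trans-Golgi, had 347, 348 and 539.7 in WT and 486, 465 and 341 in KO. Golga3, Golga4, Golga5, Golga7, Golgb1 and Golga1 overlapped between KO and WT, with log2 fold changes from −0.33 for Golga3 to 0.73 for Golga7. Gorasp1, the cis-Golgi stacking protein, was at 276 in WT 1 and 131 in Het 1 and between 37.0 and 51.1 in the other 7 animals.

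Of the 7 p24 genes, 5 were higher and 2 lower in KO (median log2 fold change 0.24), but 3 higher and 4 lower without WT 1 (median −0.08). Tmed10 had 139.9, 106 and 134 in WT, 139, 352 and 138 in Het and 327, 175 and 148 in KO. Its 3 KO animals lay above the 3 WT animals, although KO 3 exceeded the highest WT animal only narrowly and Het 2 was the highest of all (log2 fold change 0.69 ± 0.34, limma adjusted p = 0.615, and 0.35 without KO 1). Tmed5 had 33.4, 46.3 and 44.4 in WT and 63.6, 58.0 and 50.9 in KO, and Tmed4 had 192, 264 and 254 in WT and 283, 278 and 299 in KO, both with no overlap and with log2 fold changes of 0.47 ± 0.24 and 0.29 ± 0.20, the latter 0.14 without WT 1. Tmed9, the p24 gene with the highest mean count, was at 161 in WT 1 and 269.7 to 344 elsewhere, and Tmed3 and Tmed2 had log2 fold changes of 0.00 ± 0.23 and −0.29 ± 0.45.

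ER-Golgi SNAREs other than Stx18 had no p under 0.05, with 5 of all 10 genes higher and 5 lower (median log2 fold change −0.01). Use1 and Bnip1 encode SNAREs that act with STX18 at the ER, and Sec22b encodes the R-SNARE of the same complex. Use1 had 1056, 905 and 810.1 in WT and 965, 613 and 928 in KO (log2 fold change −0.16 ± 0.24), and Sec22b had 210.5, 174 and 179 in WT and 159.8, 302 and 24.1 in KO, where only KO 3 was low. Bnip1 was high in WT 2, WT 3, Het 2 and KO 1 (118 to 155) and at 15.1 to 30.0 in the other 5 animals, and none of these 3 genes was higher in all 3 KO animals than in all 3 WT animals. The same 4 animals were the high ones for the Sertoli cell marker Amhr2 (519.6 to 624, against 3.78 to 15.5 in the other 5), and Amhr2 was picked out after its values were seen. The other Sertoli markers did not divide the animals in this way. Gata4 came closest, at 0 in WT 1, Het 1, Het 3 and KO 2 and at 21.2 to 34.8 in the other 5 animals. Clu was highest in KO 2 and WT 1 (3565 and 3259.9), Sox9 in KO 2 and Het 1 (391 and 314), Wt1 and Rhox5 in KO 2 (199 and 273), and Amh was at 0 throughout. Their part in the Bnip1 values was not tested. Gosr1, Gosr2 and Bet1, SNAREs of the Golgi and the intermediate compartment, overlapped between KO and WT with log2 fold changes of 0.30, 0.00 and −0.42. Ykt6 varied least of the SNAREs within genotypes, from 214 to 247 in WT to 208 to 231 in KO (log2 fold change −0.03 ± 0.18).

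**Figure D3:**
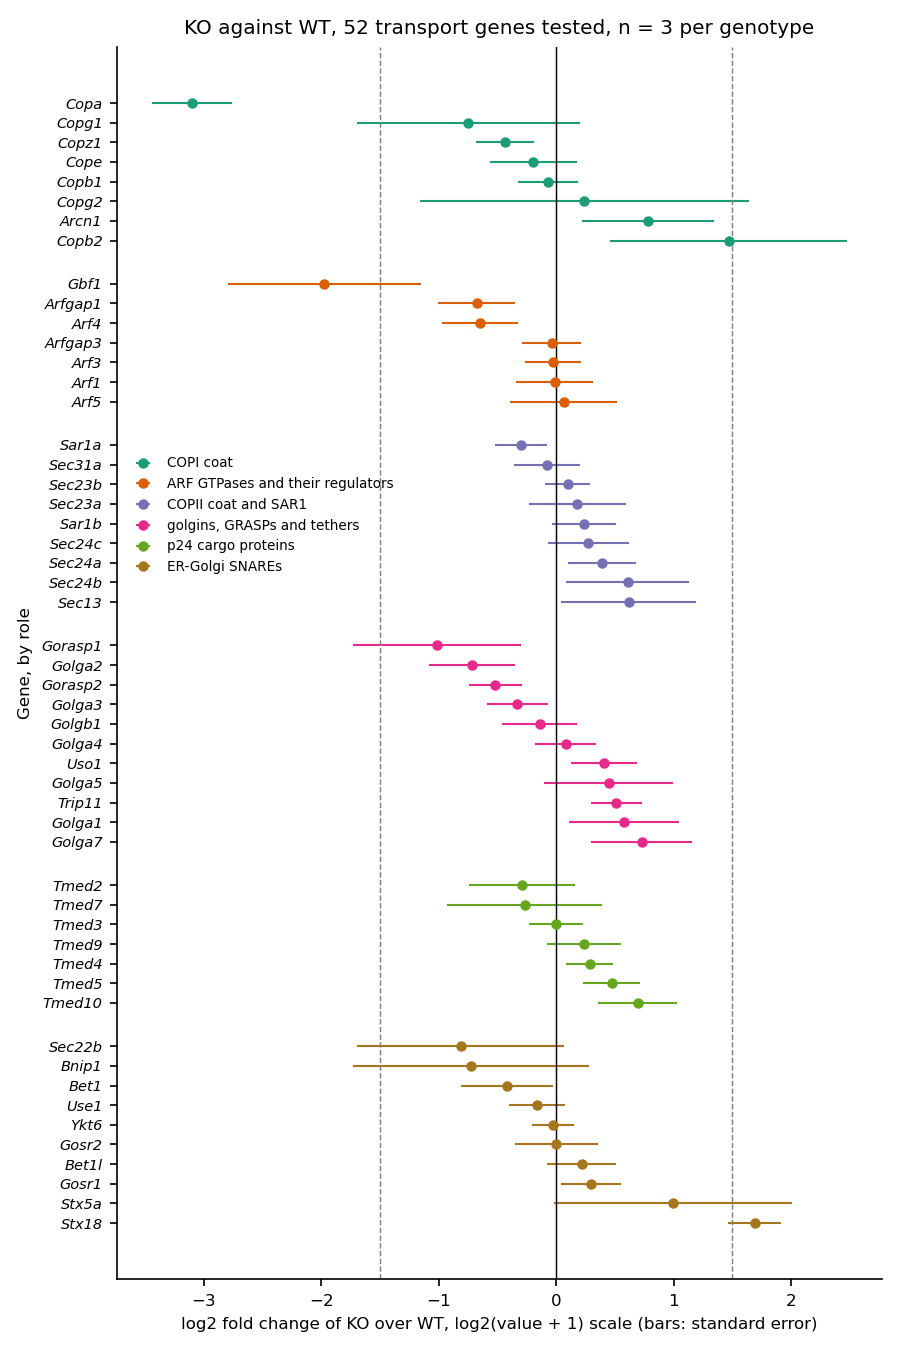
Log2 fold change of KO over WT for the 52 transport genes tested, on the log2(value + 1) scale with standard errors as bars (n = 3 per genotype), grouped by role and ordered within a role, with dashed lines at the 1.5 cutoff. Copa at −3.10, Gbf1 at −1.97 and Stx18 at 1.69 lie past a dashed line, and the widest bar belongs to Copg2 (standard error 1.40).

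Over all 52 genes tested the fold changes were centered on 0, with 27 higher and 25 lower in KO and a median of 0.00, beside 0.02 over all 14223 genes. Leaving out WT 1 gave 20 higher and 32 lower with a median of −0.07, beside −0.03 over all genes, and moved the fold change of 39 of the 52 genes by over 1.5 times. KO and WT did not overlap for 10 transport genes. Of these, 6 were higher in KO (Stx18, Tmed10, Tmed4, Tmed5, Trip11 and Uso1), where 9.41% of all genes were higher without overlap, and 4 were lower (Arf4, Copa, Golga2 and Gorasp2), where 10.5% of all genes were lower. The summed level over all 55 genes was 11653 to 12832 normalized counts in WT, 10873 to 12256 in Het and 10865 to 11631 in KO. This sum was not scaled by the normalized total over all genes, which was also lower in all KO than in all WT animals. Scaling by total gene reads rather than size factors moved the median log2 fold change of all genes from 0.02 to 0.22 and that of the transport genes from 0.00 to 0.20.

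The comparison of Het with WT, which shares its WT animals with the one above, asks what deletion of 1 copy does. The elongating spermatid sum was lower in all Het than in all WT animals, as given above, and its part in what follows was not tested. Of the 53 transport genes tested, 0 were called by limma, where 0 of 14216 genes (0%) were called over the whole table, and DESeq2 called 31 genes, 0 of them transport genes, and edgeR 0. Under an unadjusted p of 0.05 were 3 transport genes, beside 3.34% of all genes, and 8 did not overlap between the genotypes, beside 13.3% of all genes. Tmed7, a p24 protein, was lower in Het, with 68.1, 125 and 149.7 in WT and 54.8, 36.3 and 38.1 in Het (log2 fold change −1.34 ± 0.36, limma adjusted p = 0.779). In KO it had 158, 32.9 and 139, so KO 2 lay below the Het animals and the other KO animals far above them. Copb1 was higher in Het, with 139, 144 and 145, above all WT and KO animals and with a narrow spread (log2 fold change 0.60 ± 0.20). Sec24b had 55.7, 158 and 215 in WT, 379.8, 249 and 330.2 in Het and 143, 213 and 223 in KO, and its Het animals were likewise the highest (log2 fold change 1.34 ± 0.52, and 0.77 without WT 1). Arfgap1 was lower in Het without overlap (68.0, 113 and 114, log2 fold change −0.83 ± 0.36, limma adjusted p = 0.779, and −0.55 without WT 1). Copa, with 2 low Het animals and 1 high one, had a log2 fold change of −2.38 ± 1.13 (limma adjusted p = 0.779), which became −3.72 without Het 2.

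KO and Het animals, the third comparison, differ in whether 1 copy of Pfn3 remains, and each of these genotypes also enters a comparison above. Again 0 of 52 transport genes were called, where 8 of 14343 genes (0.0558%) were called over the table. DESeq2 and edgeR each called 0 transport genes as well. Over the 14343 genes DESeq2 called 38, and edgeR called 5 with RLE factors and 7 with TMM factors. There were 3 transport genes under an unadjusted p of 0.05, beside 3.56% of all genes, and 3 that did not overlap (Copb1, Gorasp2 and Sec24b), beside 10% of all genes. Copb1 and Sec24b were lower in KO than in Het, with log2 fold changes of −0.67 ± 0.22 and −0.73 ± 0.25. Stx18 was higher in KO on average (log2 fold change 1.49 ± 0.61, limma adjusted p = 0.973) but Het 3 lay among the KO animals. Bet1l, a Golgi SNARE, had 197, 354 and 130.2 in Het and 399, 334 and 373 in KO (log2 fold change 0.81 ± 0.36, and 0.48 without Het 3). Between KO and Het the Copa difference was −0.72 ± 1.10, and it turned to 0.62 without Het 2.

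Animals of the same genotype differed widely for some transport genes. Of the 53 genes that passed the filter on all 9 animals, 13 (24.5%) had a ratio of (value + 1) over 4 between the highest and lowest animal of at least 1 genotype, beside 27.4% of all 14865 genes. The median of the widest ratio was 2.27 for the transport genes and 2.25 for all genes. By genotype, 8 transport genes exceeded 4 in WT, 5 in Het and 5 in KO. The widest was Copa in Het, at 18.5, followed by Copb2 (15.8) and Copg2 (15.4) in WT. Stx5a, the syntaxin of the cis-Golgi, had 16.1, 245 and 203 in WT, 146, 209.5 and 29.6 in Het and 213, 159 and 199 in KO, so WT 1 and Het 3 were low and the other 7 animals lay between 146 and 245.

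**Figure D4:**
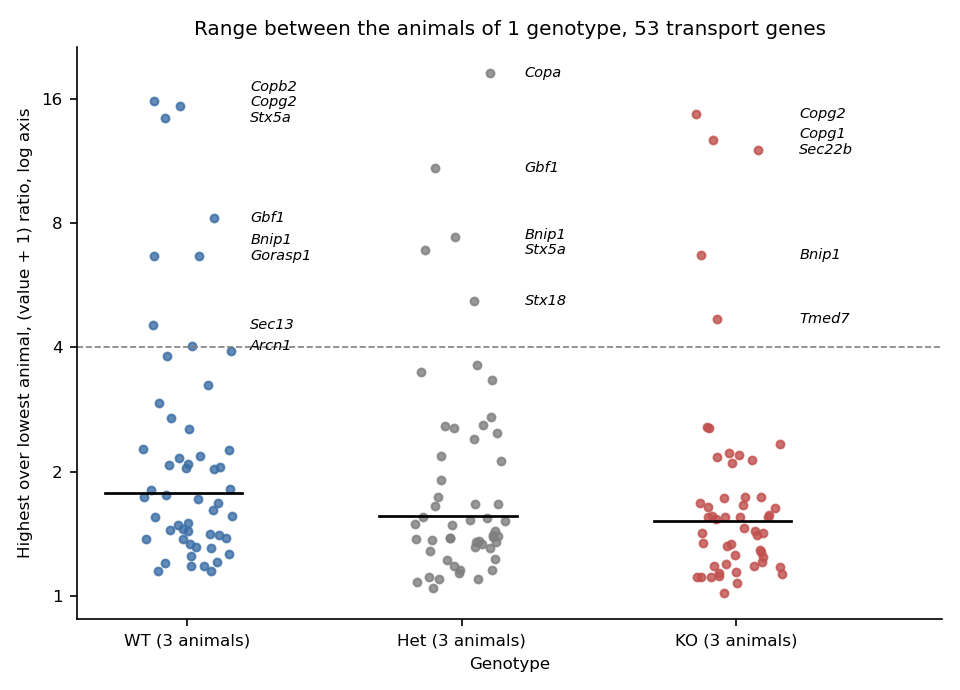
Ratio of the highest to the lowest animal, computed on value + 1 and shown on a log axis, within each genotype for the 53 transport genes that passed the filter (dots), with the median over all 14865 genes (black lines) and a dashed line at 4. Names mark the genes above 4, of which there are 8 in WT, 5 in Het and 5 in KO.

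Since reads at transcript ends can be assigned to either of 2 overlapping genes, the annotated genes that overlap a transport gene or lie within 5 kb of it were set beside it. Whether the counting used strand is not given in the sources used here. Arfgap2, singled out after its values were seen, had 4.95, 218 and 2.90 in WT, 0, 1.86 and 1.06 in Het and 3.44, 0 and 0 in KO, so that WT 2 alone was above the limit of detection by a wide margin. The 3′ end of this plus-strand gene on chromosome 2 overlaps 1864 bases of 1110051M20Rik on the minus strand, which had 488, 188 and 509.8 in WT, 368, 328 and 337 in Het and 570.3, 497 and 500.5 in KO. WT 2 was the highest animal for the first gene and the lowest for the second, and their sum was 406 in WT 2 and 330 to 574 in the other 8 animals. Gorasp1, also chosen after its values were seen, overlaps Wdr48 on the other strand by 1331 bases. Wdr48 was lowest in WT 1 and Het 1 (448 and 539), the animals where Gorasp1 was highest, and the sum of both genes ranged from 591 to 724 over the 9 animals. How reads were divided within these pairs was not tested, and values of Arfgap2 and Gorasp1 are uncertain for that reason.

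**Figure D5:**
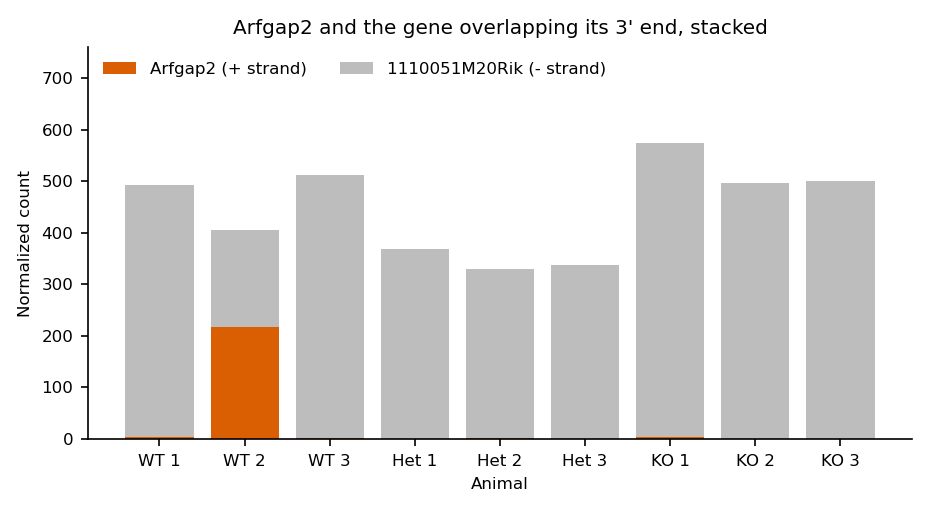
Normalized counts of Arfgap2 and of 1110051M20Rik, which overlaps its 3′ end on the other strand, stacked for each of the 9 animals. Only WT 2 holds a visible share for Arfgap2 (218 normalized counts), and the sum in this animal lies within the range of the others.

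Copa overlaps 2 annotated genes on the other strand. One is the antisense gene Gm37756, with 2770 bases of overlap and 0 in every library. The other is Ncstn, which shares 267 bases at the starts of both genes and had 14.9, 29.9 and 46.3 in WT and 36.1, 46.4 and 38.4 in KO. Pex19, a peroxisome import gene that begins 4424 bases beyond the Copa 3′ end on the same strand, had 3.71, 29.9 and 48.3 in WT, 21.7, 93.1 and 85.7 in Het and 94.5, 155 and 119 in KO. Pex19 was thus lower in all 3 WT animals than in all 3 KO animals, the reverse of Copa. Het 2 was high and Het 1 low for both genes, while Het 3 was low for Copa (27.5) and high for Pex19 (85.7). Over the 9 animals the 2 genes correlated at r = −0.33 on the log2 scale. Their summed values were 218 to 496 in WT and 142 to 185 in KO, without overlap. How reads were divided within this pair was not tested. Stx18 overlaps the 3′ end of Nsg1 on the other strand by 574 bases, and Nsg1 had 106, 139 and 136 in WT and 138, 136 and 209 in KO. How reads were divided between Stx18 and Nsg1 was not tested either, so the Stx18 values carry that uncertainty. Within Gbf1 lies the antisense gene Gm16726, with 212, 159 and 122 in WT and 125, 95.8 and 114 in KO.

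The pattern most like that of Copa over the 9 animals, among the other transport genes and 59 further genes of the pathway, was that of Trappc2l (Pearson r = 0.88 on the log2 scale), followed by Gbf1 (0.86) and Vti1b (0.78). For Stx18 they were Sec16a (0.67), Trappc3 (0.62) and Golga1 (0.54). These correlations describe 9 libraries that share scaling and the genotype contrast, and carry no test.

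The 59 further genes (COG and TRAPP complexes, ER exit site proteins, the NRZ tether, cargo receptors, Golgi Rab proteins and late Golgi SNAREs) were read as the surroundings of the transport genes, and 57 of them were tested. In KO against WT 32 were higher and 25 lower (median log2 fold change 0.05). At an unadjusted limma p under 0.05, 1 was higher beside 3.04% of all genes and 3 were lower beside 5.03%. Of the 57, 0 were called, beside 0.0352% of all genes. The genes below are given because they had the lowest p-values of these 57. Trappc2l, a subunit of the TRAPP tethering complexes, had 643, 587 and 556 in WT, 238, 514 and 379 in Het and 365, 302 and 397 in KO (log2 fold change −0.75 ± 0.18, limma adjusted p = 0.592). Rab6a, the Rab GTPase of retrograde Golgi transport, had 224, 64.6 and 82.1 in WT, 85.0, 348 and 349 in Het and 14.6, 59.0 and 10.7 in KO (log2 fold change −2.27 ± 0.75, limma adjusted p = 0.610), so that its KO animals were the 3 lowest. Rab1a, which acts at ER exit and the cis-Golgi, had 38.4, 28.0 and 238 in WT, 315, 15.8 and 14.8 in Het and 293, 266 and 240.4 in KO (log2 fold change 2.04 ± 0.78), and its KO animals lay above the WT animals, although KO 3 exceeded WT 3 only narrowly. Vti1b, a late Golgi and endosome SNARE, was lower in KO without overlap and had 27.2, 28.9 and 28.0 in WT and 18.9, 14.5 and 13.4 in KO, and Scfd2, a protein of the SM family that was listed with the NRZ genes, had 50.8, 60.8 and 40.6 in WT and 33.5, 31.0 and 37.5 in KO. The NRZ tether, to which STX18 binds at the ER and which is given for that reason, consists of the products of Zw10, Rint1 and Nbas. Their log2 fold changes were 0.22 ± 0.50, 0.13 ± 0.31 and 0.68 ± 0.63, none under an unadjusted p of 0.05.

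RefSeq promoter windows of 300 bases were found for 49 of the 55 transport genes (58 windows) and were set beside all 32851 windows. The transport genes had a median GC content of 59.3% and a median of 22 CpG per window, against 52.7% and 7. The GC box GGGCGG was present in 63.8% of their windows and 35.7% of all, CCACG in 75.9% and 32.8%, TGACG in 48.3% and 20.8%, and CCAAT in 39.7% and 37.4%, on either strand. The full ER stress element, which joins CCAAT and CCACG through a spacer of fixed length, was in 0 of the 58 windows and in 0.119% of all. The motifs that differed most in share each contain a CpG, and windows of the transport genes hold more CpG than the rest. No window was matched for Arcn1, Golga4, Golga7, Golgb1, Tmed2 and Tmed7.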

How the data were processed

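RNA was measured with a QuantSeq 3′ kit in 9 testis samples. Per the labels and the study's methods, the authors trimmed reads with Trim Galore 0.4.5, aligned them to GRCm38 with HISAT2 2.1, counted genes with StringTie 1.3.3, removed pseudogenes and scaled with DESeq2. The deposited values are a signal unit, normalized counts, that is, whole counts per gene that were scaled by a single factor in each sample, and every value was a whole multiple of its sample's step within 0.001, so whole reads could be recovered. All 55 transport genes stand on loci with a StringTie merge identifier, as do 23282 of the 38674 entries. Whether such a locus holds reads from beyond the annotated gene was not tested. There were 0 per-sample columns left unused.

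Each comparison of 3 against 3 samples was fitted with limma 3.58.1 (R 4.3.3, empirical Bayes with a trend, two-sided) on log2(value + 1) over all genes that reached a value of 10 in 3 or more of the samples compared, with Benjamini-Hochberg adjustment over all of them. A gene was called at an adjusted p under 0.05 together with an absolute log2 fold change above 1.5, the study's cutoffs. DESeq2 1.42.0 and edgeR 4.0.16 on recovered reads, other scalings, pseudocounts and filters, a replicate block and leaving out samples were alternatives. The fits were tested on simulated reads in which all genes varied to the same degree and no library stood apart. That test therefore does not show how the fits perform with a library such as WT 1. The transport genes, the other lists and the tests were chosen with earlier results of these data known. Genes given in full were Copa and Stx18, the next 8 lowest p in KO against WT and the 4 lowest in each other comparison, the 2 highest mean counts per role, the 6 widest ranges within a genotype, 5 pathway genes by p, and annotated neighbours within 5 kb. Gene positions came from GENCODE M21 and promoters from RefSeq on GRCm38.p6.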

Additional observations from a re-analysis of the deposited data

How the results depend on the processing

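Of the 52 transport genes tested in KO against WT, 0 were called by limma and 2 (Copa and Stx18) by DESeq2. The number called with 1 animal left out ranged from 0 to 2, the 2 being Copa and Stx18 without WT 1, with log2 fold changes of −3.40 and 1.84. In Het against WT and in KO against Het 0 transport genes were called under each alternative run. Over the whole table, KO against WT had 5 calls, which became 100 with DESeq2, 3 with all 9 samples in 1 fit and 0 to 49 with 1 animal left out, 49 being the number without WT 1. Het against WT had 0 calls, which became 31 with DESeq2, 1 with limma on TMM factors, 2 with a pseudocount of 5, 3 with no filter, 1 with at least 10 in all samples compared, 3 with all 9 samples in 1 fit and 0 to 3 with 1 animal left out. KO against Het had 8 calls, which became 38 with DESeq2, 5 with edgeR on RLE factors, 1 with at least 10 in all samples compared, 4 with all 9 samples in 1 fit and 0 to 39 with 1 animal left out, 39 being the number without Het 2. The causes of these shifts were not tested.

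With the replicate number as a block, KO against WT and KO against Het each had 0 calls over the whole table. Same-numbered samples of different genotypes correlated in their deviations from the genotype means at −0.14 to 0.19, and not every sample correlated best with its own number. The labels state no pairing, so no pairing was used. These correlations cannot show whether same-numbered samples share more than the number.

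For 15 named transport genes in KO against WT, 245 of 255 fold changes over the alternatives kept their direction and their side of the cutoffs, and 4 crossed the cutoffs (Copa and Stx18 with DESeq2, −3.15 and 1.73, and without WT 1). Direction turned in 6 when 1 animal was left out. Copg2 ranged from −0.94 to 1.48, Stx5a from −0.24 to 1.69, Copg1 from −1.44 to 0.40 and Sec22b from −1.56 to 0.23. Leaving out WT 1 moved the fold change of 39 of 52 transport genes by over 1.5 times in KO against WT, and leaving out any other animal did so for 17 to 26. The limma adjusted p of Copa ranged from 0.0140 to 0.413 with 1 animal left out and that of Stx18 from 0.0369 to 0.788. Leaving out WT 1 and Het 1 together, an alternative chosen after seeing the data, gave 0 calls in Het against WT, and Copb1 and Tmed7 were under an unadjusted limma p of 0.05. Genes near the limit of detection (Copz2, Arfgap2 and Sec24d) were too low to be tested in KO against WT.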

Other observations

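Ergic2, a membrane protein of the ER-Golgi intermediate compartment that was singled out after its values were seen, had 163, 1207 and 1233 normalized counts in WT, 214, 256 and 320 in Het and 336, 197 and 292 in KO. WT 2 and WT 3 lay far above the other 7 animals and WT 1 was the lowest of all 9.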
